A study of Mus musculus with 68 samples.

Results

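The genes described are 9 members of the endothelin signalling pathway and the HAND transcription factors it acts on: Edn1, Ece1, Ednra, Ednrb, Gnaq, Gna11, Mef2c, Hand1 and Hand2. They were found by symbol among the 21948 genes of the deposited table, and all 9 passed the filter that left 18428 genes for testing. RNA was sequenced from the first and second pharyngeal arches (PA1 and PA2) of mouse embryos of the strain CBA/Ca/J x C57BL/10 on embryonic days E9.0 and E9.5 and again on days E10.0 and E10.5. Embryos were wildtype or carried the label Hoxa2-/-, whose allele the labels do not describe, and no other allele or treatment is named for either. Wildtype PA1 was sampled in 5, 5, 5 and 3 embryos over the 4 stages and wildtype PA2 in 4, 4, 5 and 3. PA1 labelled Hoxa2-/- was sampled in 4, 5, 5 and 3 embryos and PA2 labelled Hoxa2-/- in 4, 5, 5 and 3. The sample titles give a replicate number but name no embryo. PA1 and PA2 libraries with the same label, stage and replicate number were taken to come from the same embryo. Counted this way, 35 embryos yielded 68 libraries, and both arches were sequenced from 33 of them.

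Each pharyngeal arch holds a mesenchyme largely derived from neural crest, around a core of mesoderm and under a covering of epithelium. Endothelin-1 is made from the Edn1 precursor, which the protease encoded by Ece1 cleaves into its active form. It is released by arch epithelium and core mesoderm and binds the receptor Ednra on neural crest mesenchyme, where G proteins of the Gq family, with alpha subunits encoded by Gnaq and Gna11, pass on the signal. Ventral arch identity, including that of the lower jaw, depends on this signal, and Mef2c, the Dlx5 and Dlx6 genes and Hand2 act downstream of it. Ednrb, the second endothelin receptor, is known for its role in migrating melanocyte and enteric precursors.

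Library depth ran from 8912251 to 20619153 reads, so that 3 reads correspond to between 0.140 and 0.328 CPM (the deposited unit, reads relative to library size as scaled by the authors). A summed list of 6 arch mesenchyme markers (Prrx1, Prrx2, Twist1, Pdgfra, Dlx2, Tfap2a) lay between 323 and 716 CPM in all 68 libraries. Hoxa2, the targeted gene, had group means of 0.107 to 0.519 CPM in PA1. In PA2 it was counted at 28.7 ± 8.41, 60.7 ± 23, 97.7 ± 13.3 and 132 ± 15.7 CPM (SD; n = 4, 5, 5 and 3) in the libraries labelled Hoxa2-/- over the 4 stages. The wildtype PA2 libraries had 22.3 ± 1.40, 40.7 ± 6.80, 47.5 ± 4.49 and 58.3 ± 4.52 CPM (SD; n = 4, 4, 5 and 3), so that the counts of this gene go against the label. Whether the reads come from a part of the gene that the allele keeps was not tested, and directions between labels below are directions between "the libraries labelled" one way or the other. All wildtype libraries other than those of E10.0, 24 in number, also stood apart from the other 44. For 19 genes the 24 did not overlap the 44, for example Ski, at 26.3 to 108 CPM in the 24 against 9.28 to 22.8 CPM in the libraries labelled Hoxa2-/- and 9.52 to 15.5 CPM in wildtype E10.0. Label and this division therefore cannot be told apart except at E10.0, and wildtype steps to or from E10.0 cross it. Comparisons of the arches, and those of E9.5 or E10.5 with E9.0, lie within 1 side of it. Cardiomyocyte transcripts were abundant in PA2 at the early stages, and 8 libraries had high yolk sac or blood transcripts. Their values are given below beside some of the 9 genes. In such bulk tissue, fewer cells of a type and less RNA per cell cannot be told apart. The series text calls the samples biological replicates from single embryos, so p-values measure the spread between embryos as dissected.

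Edn1 and Hand2 are the ligand and target genes whose levels moved in opposite directions over the stages, and the 250 bases before their annotated starts are shown for that reason. The sequences are from RefSeq (GRCm38.p6), both on the plus strand. Capitals mark the letters of the motifs found: CCAAT in either orientation, CATCTG (a form of the E-box that HAND and TWIST factors can bind) and AGATAA, which binds factors of the GATA family and was found on the minus strand, so that it is printed as TTATCT.
Edn1 (chr13:42301226-42301475): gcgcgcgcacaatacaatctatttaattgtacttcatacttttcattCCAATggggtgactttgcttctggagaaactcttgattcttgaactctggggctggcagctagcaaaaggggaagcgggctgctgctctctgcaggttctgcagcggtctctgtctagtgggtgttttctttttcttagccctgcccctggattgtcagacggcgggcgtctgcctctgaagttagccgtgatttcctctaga
Hand2 (chr8:57320733-57320982): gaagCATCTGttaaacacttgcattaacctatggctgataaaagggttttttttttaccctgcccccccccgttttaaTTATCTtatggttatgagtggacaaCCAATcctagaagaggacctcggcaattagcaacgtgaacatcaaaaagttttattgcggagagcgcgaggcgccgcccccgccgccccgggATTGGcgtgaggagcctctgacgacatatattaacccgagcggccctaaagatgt
The Edn1 window has a GC content of 50.4% and the Hand2 window 49.2%, against a median of 52.4% over 32851 promoter windows of the same length. CCAAT lies 203 to 199 bases before the Edn1 start. In the Hand2 window it lies 147 to 143 bases before the start on the plus strand and 55 to 51 bases on the minus strand. At least 1 CCAAT on either strand is held by 33.8% of the 32851 windows, CATCTG by 14.4% and AGATAA by 9.99%. TATAAA (held by 12.4% of all windows), TGACAG (15.9%), TGATNNAT (7.68%) and a MEF2 pattern (CTA, 4 letters of any kind and TAG, held by 3.20%) were also searched on both strands and are not among the letters of either window. The table held 8 of the 9 genes, all but Hand1.

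Across all 68 libraries the 9 genes covered a wide range of levels. On the scale of CPM per kilobase of exon, the median level was 22.8 for Gna11, 22.5 for Ece1, 8.89 for Hand1, 8.14 for Edn1, 7.56 for Ednra, 6.71 for Gnaq, 4.02 for Hand2, 1.57 for Mef2c and 1.16 for Ednrb. Neighbours in this order often changed places from library to library. Gna11 was above Ece1 in 38 of 68 libraries, Hand1 above Edn1 in 34 and Edn1 above Ednra in 36. Over all libraries together those neighbours are therefore not ordered. The place of Edn1 depended on the stage. In wildtype PA2 at E9.0 the mean per kilobase was 15.3 ± 2.25 for Edn1, 8.56 ± 1.65 for Ednra and 6.18 ± 3.06 for Hand1 (SD; n = 4). In wildtype PA1 at E10.5 these means were 0.669 ± 0.168, 15.8 ± 3.16 and 22.8 ± 2.25 (SD; n = 3). Ece1 stood above Hand1 in 56 libraries and Gnaq above Hand2 in 63, which are the clearest steps in the order. The other neighbours were less sharply ordered, with Ednra above Gnaq in 47 libraries, Hand2 above Mef2c in 44 and Mef2c above Ednrb in 53.

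Edn1 (chromosome 13, 42301476 to 42307990, plus strand, GRCm38) was higher in PA2 than in PA1 of the same embryo in 33 of 33 embryos. Of the 18428 genes tested, 1.02% were higher in PA2 in every embryo. The log2 difference within an embryo had a median of 0.79 in 16 wildtype embryos, with a range of 0.17 to 1.63, and a median of 0.69 in 17 embryos labelled Hoxa2-/-, with a range of 0.16 to 1.29. In wildtype E9.0 embryos Edn1 stood at 21.8, 18.7, 18.8, 20.4 and 23.2 CPM in PA1 and at 38.2, 30.1, 34.9 and 27.4 CPM in PA2. At E9.5 it stood at 22.9, 17.7, 19.7, 19.1 and 13.6 CPM in PA1 and at 33.2, 34.6, 33.9 and 25.5 CPM in PA2. Every PA2 value lay above every PA1 value at both stages. At E10.0 the wildtype levels were 5.00, 9.11, 4.96, 7.29 and 6.73 CPM in PA1 and 14.4, 16.6, 10.9, 24.7 and 20.3 CPM in PA2. At E10.5 they were 1.47, 1.05 and 1.77 CPM in PA1 and 3.93, 1.37 and 2.11 CPM in PA2. The arches again did not overlap at E10.0, and at E10.5 a single PA2 library, at 3.93 CPM, lay well above the rest.

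In embryos labelled Hoxa2-/-, Edn1 at E9.0 was 21.8, 28.5, 16.1 and 33.1 CPM in PA1 and 34.9, 35.4, 30.8 and 39.8 CPM in PA2. At E9.5 it was 28.1, 25.7, 16, 9.26 and 15.2 CPM in PA1 and 39.6, 42.0, 32.7, 19.0 and 32.6 CPM in PA2. The arches overlapped at both stages, although PA2 was the higher arch in each embryo. At E10.0 Edn1 was 8.17, 5.59, 5.82, 6.54 and 7.93 CPM in PA1 and 21.5, 10.8, 14.0, 10.0 and 17.2 CPM in PA2, and at E10.5 it was 1.87, 4.57 and 4.35 CPM in PA1 and 2.44, 5.92 and 4.98 CPM in PA2. The E10.0 arches did not overlap and those of E10.5 did.

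**Figure D1:**
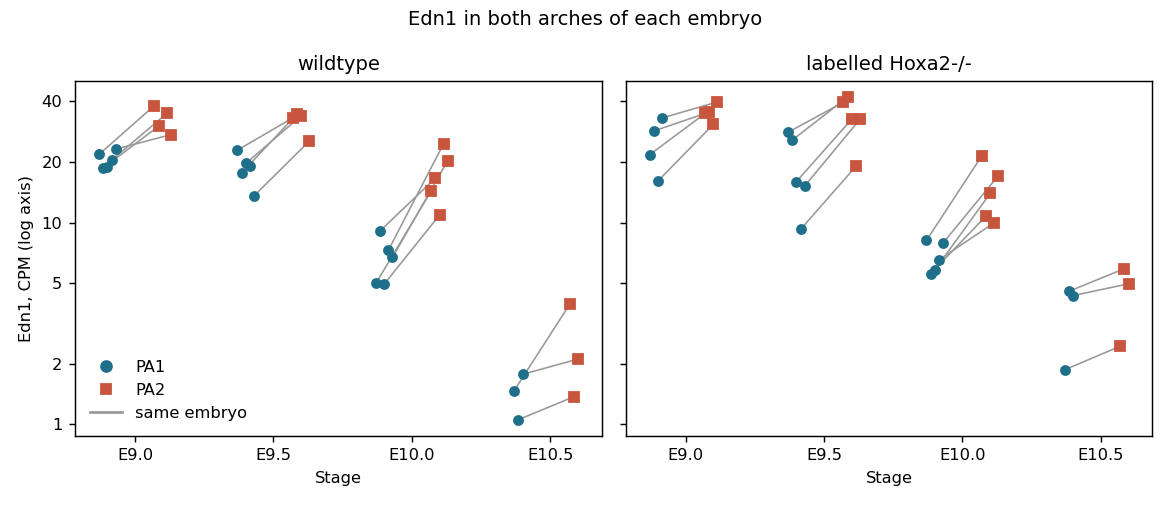
Edn1 in CPM (vertical axis, logarithmic) in both arches of each embryo, by stage and label, with a line joining PA1 and PA2 of the same embryo. PA2 is the higher end of the line in 33 of 33 embryos, and both arches lie far lower at E10.5 than at E9.0.

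By limma, fitted over all 68 libraries on log2(CPM + 1) with Benjamini-Hochberg adjustment over 18428 genes, the log2 difference of Edn1 between PA2 and PA1 in wildtype was 0.63 (SE 0.24, adjusted p = 0.060) at E9.0, 0.75 (SE 0.24, adjusted p = 0.018) at E9.5, 1.25 (SE 0.23, adjusted p = 9.3e-05) at E10.0 and 0.46 (SE 0.30, adjusted p = 0.95) at E10.5. In embryos labelled Hoxa2-/- limma gave 0.53 (adjusted p = 0.13), 0.83 (adjusted p = 0.012), 0.97 (adjusted p = 0.0051) and 0.25 (adjusted p = 0.86) over the same stages. Averaged over the 4 stages, the limma difference was 0.77 (SE 0.13, adjusted p = 3.3e-06) in wildtype and 0.64 (SE 0.13, adjusted p = 8.2e-05) in embryos labelled Hoxa2-/-. With each embryo as a block, limma also called the E9.0 difference, at 0.60 (adjusted p = 0.0019) in wildtype and 0.53 (adjusted p = 0.0043) in embryos labelled Hoxa2-/-. The E9.5 calls were lost without single libraries: limma gave 0.72 (adjusted p = 0.057) without wildtype PA2 replicate 3 and 0.65 (adjusted p = 0.051) without wildtype PA1 replicate 5, and 0.74 (adjusted p = 0.052) without PA2 replicate 2 and 0.62 (adjusted p = 0.091) without PA1 replicate 4 of the Hoxa2-/- label.

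Core mesoderm, a tissue that makes endothelin-1, differed between the arches in the same direction. The summed list of mesoderm core and muscle markers (Myf5, Myod1, Myog, Msc, Tcf21, Tbx1) ran from 36.0 to 54.9 CPM in wildtype PA1 and from 72.5 to 120.5 CPM in PA2 at E9.0, and from 13.1 to 26.5 CPM in PA1 and 51.1 to 67.9 CPM in PA2 at E10.0. The epithelium list (Epcam, Cdh1, Krt8, Krt18, Krt5, Krt14, Trp63, Cldn6, Esrp1, Grhl2) overlapped between the arches at E10.0, at 613 to 867 CPM in PA1 and 669 to 883 CPM in PA2. The endothelium list (among them Pecam1, Cdh5 and Kdr) had E10.0 medians of 198 CPM in PA1 and 289 CPM in PA2 in wildtype. Under the Hoxa2-/- label they were 198 and 299 CPM, and the arches overlapped in both labels. At E9.0 the wildtype medians were 323 CPM in PA1 and 302 CPM in PA2. The part of core mesoderm or endothelium in the Edn1 difference was not tested. With the cardiomyocyte list as a covariate, the E10.0 difference of Edn1 was 1.08 (limma adjusted p = 0.0021) in wildtype and 0.83 (limma adjusted p = 0.036) in embryos labelled Hoxa2-/-, while the E9.5 differences of 0.56 (adjusted p = 0.15) and 0.66 (adjusted p = 0.11) were no longer called.

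Over time, Edn1 fell in both arches. Its mean in wildtype PA1 was 20.6 ± 1.93, 18.6 ± 3.39, 6.62 ± 1.73 and 1.43 ± 0.359 CPM (SD; n = 5, 5, 5 and 3) over the 4 stages, and in wildtype PA2 32.7 ± 4.81, 31.8 ± 4.26, 17.4 ± 5.34 and 2.47 ± 1.32 CPM (SD; n = 4, 4, 5 and 3). From E9.0 to E10.5 the limma log2 difference was -3.16 (SE 0.27, adjusted p = 1.7e-14) in wildtype PA1 and -3.33 (SE 0.28, adjusted p = 1.7e-14) in wildtype PA2. In embryos labelled Hoxa2-/- it was -2.51 (SE 0.28, adjusted p = 3.1e-10) in PA1 and -2.79 (SE 0.28, adjusted p = 1.1e-11) in PA2. The ratio of mean CPM between E10.5 and E9.0 was 0.0695 and 0.0756 in wildtype PA1 and PA2, and 0.145 and 0.126 under the Hoxa2-/- label. Levels at E9.5 overlapped those at E9.0 in all 4 series, and every E10.5 library lay below every E10.0 library in all 4. The step from E9.5 to E10.0 was free of overlap in 3 of the 4 series, all but PA2 labelled Hoxa2-/-, and in wildtype that step crosses the division of the libraries. The summed epithelium list was also lower at E10.5, with medians of 967 CPM at E9.0 and 622 CPM at E10.5 in wildtype PA1 and of 1099 and 494 CPM in wildtype PA2. The mesoderm core and muscle list was lower as well, with medians of 49.6 and 21.3 CPM at these stages in wildtype PA1 and 82.6 and 50.9 CPM in wildtype PA2. Under the Hoxa2-/- label its medians were 49.6 and 14.4 CPM in PA1 and 106 and 44.1 CPM in PA2, and its part in the fall of Edn1 was not tested. The endothelium list was lower at E10.5 too, as given for Mef2c, and its part was likewise not tested. With the epithelium list as a covariate, the limma difference of Edn1 was -2.67 (adjusted p = 7.6e-11) in wildtype PA1 and -2.57 (adjusted p = 1.4e-07) in wildtype PA2, and it was -1.96 (adjusted p = 2.1e-06) and -1.89 (adjusted p = 0.00055) under the Hoxa2-/- label.

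Ece1 (chromosome 4, 137862237 to 137965229, plus strand), the converting enzyme, was abundant at all stages and fell in PA1. In wildtype PA1 it stood at 149, 119, 133, 163 and 141 CPM at E9.0, whereas the E10.5 libraries held 68.1, 89.8 and 97.8 CPM, and these groups did not overlap. In PA1 labelled Hoxa2-/- it stood at 159, 166, 162 and 147 CPM at E9.0, whereas the E10.5 libraries held 87.8, 85.3 and 97.1 CPM, again without overlap. The limma log2 difference from E9.0 to E10.5 was -0.73 (SE 0.19, adjusted p = 0.0017) in wildtype PA1 and -0.81 (SE 0.20, adjusted p = 0.0015) in PA1 labelled Hoxa2-/-. With the epithelium list as a covariate neither was called, at -0.40 (limma adjusted p = 0.13) and -0.44 (limma adjusted p = 0.15). In PA2 the limma differences of -0.47 (adjusted p = 0.060) in wildtype and -0.40 (adjusted p = 0.13) under the Hoxa2-/- label did not pass. In wildtype E9.0 embryos Ece1 was lower in PA2, at 120, 89.9, 107 and 94.9 CPM, in 4 of 4 embryos with both arches. At E10.0 it was higher in PA2 in 5 of 5 wildtype embryos and in 5 of 5 labelled Hoxa2-/-. The E9.0 difference of Ece1 in wildtype was called with the embryo block, at -0.48 (limma adjusted p = 0.030), and with the cardiomyocyte covariate, at -0.87 (limma adjusted p = 0.0013).

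Ednra (chromosome 8, 77663031 to 77724464, minus strand), the receptor of neural crest mesenchyme, followed a time course unlike that of its ligand. In wildtype PA1 it was 50.7, 49.7, 53.8, 52.2 and 44.1 CPM at E9.0, then 28.7, 29.3, 39.2, 33.1 and 29.6 CPM at E9.5. It was 34.2, 32.2, 42.1, 34.6 and 32.1 CPM at E10.0 and 89.6, 102 and 68.1 CPM at E10.5. Ednra was thus low at the middle stages and highest at E10.5, where every wildtype library lay above all those of the earlier stages. From E9.0 to E9.5 it fell in PA1, with limma log2 differences of -0.64 (SE 0.16, adjusted p = 0.012) in wildtype and -0.70 (SE 0.17, adjusted p = 0.010) under the Hoxa2-/- label. Both calls depended on single libraries: limma gave -0.60 (adjusted p = 0.053) without wildtype E9.5 replicate 1, and -0.57 (adjusted p = 0.12) and -0.61 (adjusted p = 0.085) without E9.0 replicates 1 and 3 of the Hoxa2-/- label. Without the libraries high in yolk sac or blood transcripts the wildtype difference was -0.58 (limma adjusted p = 0.053).

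In wildtype PA2 Ednra was 50.4, 38.1, 41.2 and 57.9 CPM at E9.0 and 41.6, 39.5, 59.1 and 43.5 CPM at E9.5, and those groups overlapped. It was 41.2, 46.5, 46.2, 38.0 and 32.5 CPM at E10.0 and 89.7, 90.3 and 62.3 CPM at E10.5. From E9.0 to E10.5 Ednra rose in wildtype, by a limma log2 difference of 0.76 (SE 0.18, adjusted p = 0.00060) in PA1 and 0.77 (SE 0.19, adjusted p = 0.0011) in PA2. Under the Hoxa2-/- label the E10.5 levels were 72.4, 46.0 and 60.4 CPM in PA1 and 74.2, 45.2 and 62.7 CPM in PA2. The corresponding limma differences were 0.20 (adjusted p = 0.46) and 0.43 (adjusted p = 0.083), and the difference between the labels in this time course was not tested. Replicate 2 had the lowest E10.5 level in both arches of that label. At E9.5 Ednra was higher in PA2 in 4 of 4 wildtype embryos and in 5 of 5 embryos labelled Hoxa2-/-, with a limma difference of 0.50 (SE 0.17, adjusted p = 0.023) in wildtype and 0.39 (adjusted p = 0.11) under the Hoxa2-/- label. The latter became 0.39 (limma adjusted p = 0.0052) with the embryo block. The wildtype call was lost without PA1 replicate 1, at 0.47 (limma adjusted p = 0.060), without PA2 replicate 3, at 0.38 (limma adjusted p = 0.15), and with the cardiomyocyte covariate, at 0.38 (limma adjusted p = 0.16). A share of 1.66% of Ednra exon bases lies on the other strand from exons of 4933431K23Rik, and reads there cannot be assigned without strand.

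Ednrb (chromosome 14, 103814625 to 103844402, minus strand) was the scarcest of the 9 genes per kilobase. Its group medians lay between 2.80 and 12.4 CPM, with single libraries far above them. In PA1 labelled Hoxa2-/- at E9.5 it was 6.93, 3.88, 62.6, 3.59 and 3.19 CPM, and in wildtype PA1 at E9.0 it was 5.59, 4.93, 9.28, 26.2 and 9.47 CPM. Wildtype PA1 replicates 3 and 4 of E9.0, at 9.28 and 26.2 CPM, were among the 8 libraries high in yolk sac or blood transcripts. The library at 62.6 CPM was also the highest of its group for Hand1, at 135 CPM, and for Ece1, at 288 CPM, and its summed epithelium list was 1473 CPM against 751 to 1003 CPM in the other 4. The part of epithelium in these values was not tested. From E9.0 to E10.5 Ednrb fell in PA2 labelled Hoxa2-/-, from 14.3, 5.5, 10.505 and 17.8 CPM to 2.67, 2.88 and 2.80 CPM, with a limma log2 difference of -1.68 (SE 0.50, adjusted p = 0.0075). That call ended with the cardiomyocyte covariate, at -0.83 (limma adjusted p = 0.33), and the direction turned with the epithelium covariate, at 0.42 (limma adjusted p = 0.71). In the other 3 series the limma differences were -0.53, -0.53 and -0.21, and none passed the threshold.

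Gnaq (chromosome 19, 16132831 to 16387463, plus strand) and Gna11 (chromosome 10, 81528724 to 81545190, minus strand) encode the alpha subunits of the G proteins Gq and G11, and both stayed within narrow ranges. Gnaq lay between 23.3 and 56.6 CPM in all 68 libraries, and Gna11 between 73.3 and 120 CPM. Differences that passed the test were small. Gnaq was 41.6, 38.1, 37.4 and 46.8 CPM in PA1 labelled Hoxa2-/- at E9.0 and 37.2, 34.4, 23.3 and 27.1 CPM in PA2, with a limma log2 difference of -0.43 (SE 0.12, adjusted p = 0.0055). The arches did not overlap there, but without PA2 replicate 3, the library with the highest summed yolk sac list at 421 CPM, the limma difference was -0.31 (adjusted p = 0.057). From E9.0 to E9.5 and to E10.5 Gnaq rose in PA2 labelled Hoxa2-/-, by 0.42 (SE 0.11, limma adjusted p = 0.0076) and 0.49 (SE 0.13, limma adjusted p = 0.0022). The first of these was 0.31 (limma adjusted p = 0.12) without that same library. Gna11 fell in wildtype PA1 from 104, 101, 99.0, 93.7 and 103 CPM at E9.0 to 75.9, 83.5 and 78.4 CPM at E10.5, with no overlap and a limma difference of -0.33 (SE 0.08, adjusted p = 0.00065). In wildtype PA2 Gna11 rose from E9.0 to E9.5 by 0.29 (SE 0.08, limma adjusted p = 0.018), a call lost without E9.0 replicate 4, at 0.25 (limma adjusted p = 0.082), or E9.5 replicate 5, at 0.27 (limma adjusted p = 0.075). In PA2 labelled Hoxa2-/- it fell from E9.0 to E10.5 by 0.23 on the log2 scale (SE 0.09, limma adjusted p = 0.036). That call was lost without any of 4 libraries: the limma difference was -0.21 (adjusted p = 0.067) and -0.19 (adjusted p = 0.11) without E9.0 replicates 1 and 4, and -0.18 (adjusted p = 0.17) and -0.23 (adjusted p = 0.076) without E10.5 replicates 2 and 3.

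**Figure D2:**
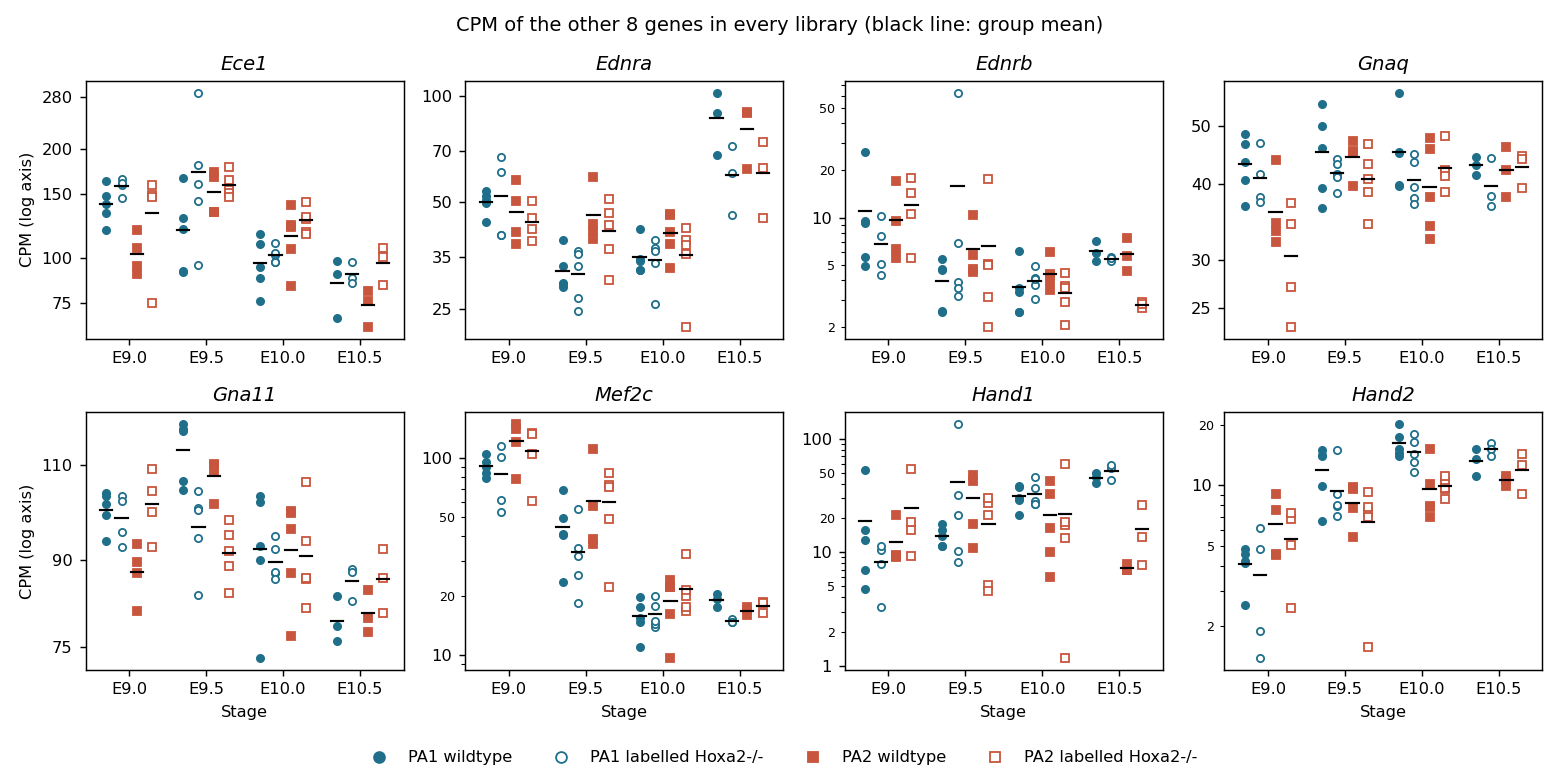
CPM of the other 8 genes (vertical axes, logarithmic, each with its own range) in every library by stage, for PA1 (circles) and PA2 (squares), wildtype (filled) and labelled Hoxa2-/- (open), with black lines for group means. Group means of Mef2c are lower and those of Hand2 higher at E10.5 than at E9.0, those of Ednra are highest at E10.5, Gnaq and Gna11 stay within narrow ranges, and Hand1 separates the arches at E10.5.

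Mef2c (chromosome 13, 83504034 to 83667080, plus strand) encodes a MADS-box transcription factor that acts in neural crest downstream of endothelin signalling and also in heart, muscle and endothelium. It fell in both arches along with Edn1. In wildtype PA1 it was 95.8, 79.2, 104.8, 84.1 and 89.6 CPM at E9.0, 40.7, 41.1, 68.9, 49.5 and 23.6 CPM at E9.5, 11.0, 17.6, 15.3, 19.7 and 14.7 CPM at E10.0, and 20.4, 17.6 and 19.1 CPM at E10.5. In wildtype PA2 it was 149, 77.9, 141 and 121 CPM at E9.0, 38.8, 57.2, 111 and 36.8 CPM at E9.5, 22.0, 23.9, 9.61, 16 and 22.2 CPM at E10.0, and 17.4, 16.8 and 16 CPM at E10.5. Most of the decline lay before E10.0, whereas Edn1 declined most after E9.5. The limma log2 difference from E9.0 to E10.5 was -2.19 (SE 0.32, adjusted p = 1.1e-07) in wildtype PA1 and -2.76 (SE 0.34, adjusted p = 1.7e-09) in wildtype PA2. Under the Hoxa2-/- label it was -2.34 (adjusted p = 1.9e-07) in PA1 and -2.48 (adjusted p = 3.8e-08) in PA2. From E9.0 to E9.5 Mef2c fell in all 4 series, with limma differences of -1.08 (adjusted p = 0.015) in wildtype PA1, -1.10 (adjusted p = 0.021) in wildtype PA2, -1.32 (adjusted p = 0.0046) in PA1 and -0.91 (adjusted p = 0.026) in PA2 labelled Hoxa2-/-.

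Each of these 4 early calls of Mef2c rested on single libraries. In wildtype PA1 the limma value was -1.06 (adjusted p = 0.052) without E9.5 replicate 1, and in PA1 labelled Hoxa2-/- it was -1.13 (adjusted p = 0.060) without E9.0 replicate 1. In wildtype PA2 it was -0.99 (adjusted p = 0.052) and -1.02 (adjusted p = 0.073) without E9.0 replicates 1 and 4, and -0.94 (adjusted p = 0.086) and -0.91 (adjusted p = 0.14) without E9.5 replicates 1 and 5. In PA2 labelled Hoxa2-/- it was -0.79 (adjusted p = 0.066) and -0.79 (adjusted p = 0.085) without E9.0 replicates 1 and 4, and -0.59 (adjusted p = 0.17) and -0.87 (adjusted p = 0.053) without E9.5 replicates 4 and 5. Mef2c was higher in PA2 in 25 of 33 embryos, with 9 of 16 wildtype and 16 of 17 labelled Hoxa2-/-. Averaged over stages, the limma arch difference was 0.45 (SE 0.15, adjusted p = 0.021) under the Hoxa2-/- label and 0.20 (adjusted p = 0.36) in wildtype. Heart muscle is a known site of Mef2c expression, and the cardiomyocyte list was higher in PA2 as given next. With that list as a covariate, the arch difference under the Hoxa2-/- label was -0.05 (limma adjusted p = 0.88). The fall of Mef2c from E9.0 to E10.5 remained called with that covariate in all 4 series, at -1.79 (limma adjusted p = 1e-07) and -1.42 (limma adjusted p = 0.0013) in wildtype PA1 and PA2 and at -1.80 (limma adjusted p = 1e-06) and -1.23 (limma adjusted p = 0.0047) in PA1 and PA2 labelled Hoxa2-/-. The summed endothelium list was lower at E10.5 than at E9.0 as well, with medians of 162 against 323 CPM in wildtype PA1, 179 against 302 CPM in wildtype PA2, and 178 against 344 CPM and 247 against 439 CPM in PA1 and PA2 labelled Hoxa2-/-. The neural crest and glial list had medians of 24.7 against 91.3 CPM in wildtype PA1 and 34.98 against 89.98 CPM in wildtype PA2, and 19.96 against 95.2 CPM and 32.6 against 106 CPM in PA1 and PA2 labelled Hoxa2-/-. The part of these cell types in the fall of Mef2c was not tested.

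Hand1 and Hand2 encode basic helix-loop-helix factors of ventral arch mesenchyme that are also expressed in the developing heart, so the cardiomyocyte content of each library stands beside them. Of 10 cardiomyocyte markers listed (Myh6, Myh7, Tnnt2, Actc1, Actn2, Myl2, Myl7, Nppa, Tnni1, Ryr2), 9 were in the table, all but Nppa. Their summed level at E9.0 was 20.3 to 49.3 CPM in wildtype PA1 and 61.5 to 1265 CPM in wildtype PA2, and 28.4 to 72.4 CPM in PA1 and 118 to 1124 CPM in PA2 labelled Hoxa2-/-. At E10.5 it was 7.81 to 9.31 CPM in wildtype PA1 and 8.5 to 10.8 CPM in wildtype PA2. All 9 were called higher in PA2 at E9.0 in both labels, and none at E10.5. Between those stages 4 were called at E9.5 in each label, and at E10.0 1 in wildtype and 0 under the Hoxa2-/- label.

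Hand1 (chromosome 11, 57828705 to 57832818, minus strand) separated the arches at E10.5, when cardiomyocyte transcripts were low in both. In wildtype PA1 its 3 values were 49.7, 40.8 and 46.3 CPM, and in PA2 they were 6.98, 7.90 and 6.93 CPM in PA2. Libraries labelled Hoxa2-/- held 54.8, 58.3 and 43.1 CPM in PA1 and 13.7, 7.68 and 26.3 CPM in PA2. The arches did not overlap in either label, and PA2 was the lower arch in 6 of 6 embryos. Of all genes tested, 17.9% in wildtype and 21.9% under the Hoxa2-/- label did not overlap between these arches either. In the fit over all libraries, which shares 1 estimate of the spread over all groups, the limma log2 difference was -2.49 (SE 0.76, adjusted p = 0.095) in wildtype and -1.80 (SE 0.76, adjusted p = 0.37) under the Hoxa2-/- label, neither of which passed. Fitted on the compared groups alone, limma called both, at -2.49 (adjusted p = 1.3e-05) and -1.80 (adjusted p = 0.038). The share of all genes called in those fits is not given here. At the earlier stages Hand1 varied widely within groups. In wildtype E9.0 it was 15.8, 4.77, 12.8, 53.3 and 6.97 CPM in PA1 and 9.01, 9.51, 21.5 and 9.36 CPM in PA2, and in PA1 labelled Hoxa2-/- at E9.5 it was 21.5, 10.3, 135, 32.3 and 8.22 CPM. Of the wildtype E9.0 libraries, PA1 replicates 3 and 4 and PA2 replicate 2 were among the 8 high in yolk sac or blood transcripts. Hand1 stood at 12.8, 53.3 and 9.51 CPM in them. At E10.0 Hand1 was 38.5, 29.0, 38.0, 30 and 21.1 CPM in wildtype PA1 and 32.8, 10.0, 6.01, 16.4 and 42.1 CPM in wildtype PA2, so that PA2 alone spread over several-fold. In PA2 labelled Hoxa2-/- at E10.0 it was 17.3, 1.17, 13.3, 59.5 and 18.4 CPM. The library at 59.5 CPM had a summed yolk sac list of 258 CPM, and the wildtype PA2 library at 6.01 CPM had one of 103 CPM.

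Over time Hand1 rose in PA1, where the limma difference from E9.0 to E10.5 was 1.71 (SE 0.68, adjusted p = 0.038) in wildtype and 2.62 (SE 0.71, adjusted p = 0.0033) under the Hoxa2-/- label. The wildtype call was lost without any of 6 libraries, with limma values of 1.38 (adjusted p = 0.11), 1.70 (adjusted p = 0.053) and 1.5 (adjusted p = 0.088) without E9.0 replicates 2, 3 and 5, and of 1.65 (adjusted p = 0.098), 1.78 (adjusted p = 0.071) and 1.70 (adjusted p = 0.085) without E10.5 replicates 1, 2 and 3. edgeR on the recovered reads gave 1.29 (adjusted p = 0.12). In PA2 the limma differences were -0.60 in wildtype and -0.46 under the Hoxa2-/- label, and neither passed. The change of the arch difference between E9.0 and E10.5 was -3.08 (SE 1.01, limma adjusted p = 0.048) under the Hoxa2-/- label and -2.31 (SE 0.99, limma adjusted p = 0.22) in wildtype. It was 1 of 9 genes called lower for that term under the Hoxa2-/- label, where 7.33% of all genes were called (14.1% with the embryo block), and 0 of 9 were called in wildtype, where 3.35% were (5.83% with the block). In wildtype 1 of the 9 had an unadjusted limma p under 0.05 and edgeR called 0. The call of Hand1 under the Hoxa2-/- label was lost with edgeR, at -3.32 (adjusted p = 0.056), with the cardiomyocyte covariate, at -1.77 (limma adjusted p = 0.20), and without any of 10 single libraries. Leaving out PA1 replicates 1, 2, 3 and 4 of E9.0 gave -2.75, -3.22, -3.25 and -3.10, and PA2 replicate 4 gave -2.61. Leaving out PA1 replicates 1, 2 and 3 of E10.5 gave -3.04, -2.99 and -3.21, and PA2 replicates 1 and 2 gave -3.06 and -2.68. The limma adjusted p over these 10 fits ran from 0.051 to 0.14. With the cardiomyocyte list as a covariate, limma called Hand1 lower in PA2 on the average of the stages, at -1.60 (adjusted p = 0.00044) in wildtype and -1.53 (adjusted p = 0.00074) under the Hoxa2-/- label, against -0.66 (adjusted p = 0.13) and -0.62 (adjusted p = 0.15) without it.

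**Figure D3:**
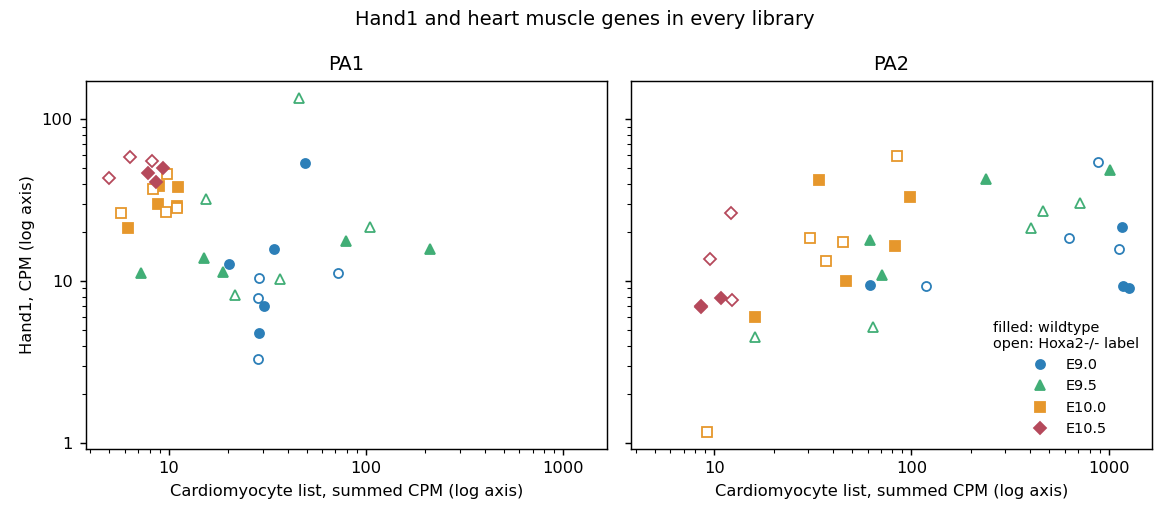
Hand1 in CPM (vertical axis, logarithmic) against the summed level of the 9 cardiomyocyte markers in CPM (horizontal axis, logarithmic), 1 point per library, by arch and stage. At E10.5 the libraries of both arches have low cardiomyocyte sums and Hand1 is at 40.8 CPM or above in PA1 and at 26.3 CPM or below in PA2, whereas PA2 libraries of E9.0 reach a sum of 1265 CPM.

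Hand2 (chromosome 8, 57320983 to 57324633, plus strand) rose early in PA1, and at E10.0 it was lower in PA2 than in PA1 of each embryo. In wildtype PA1 it was 4.86, 4.55, 2.56, 4.14 and 4.22 CPM at E9.0 and 15.0, 9.98, 6.63, 14.0 and 14.1 CPM at E9.5, without overlap. It was 20.2, 14.4, 13.9, 17.4 and 15.1 CPM at E10.0 and 11.2, 15.1 and 13.5 CPM at E10.5. The limma log2 difference from E9.0 to E9.5 in PA1 was 1.32 (SE 0.26, adjusted p = 0.0013) in wildtype and 1.29 (SE 0.28, adjusted p = 0.0029) under the Hoxa2-/- label. The latter was 1.02 (limma adjusted p = 0.064) without E9.0 replicate 3, whose level of 1.39 CPM was the lowest of its group. In PA2 the same step gave 0.33 in wildtype and 0.18 under the Hoxa2-/- label by limma, and neither passed. Over this step the summed cardiomyocyte list had medians of 1171 and 155 CPM in wildtype PA2 and of 757 and 405 CPM in PA2 labelled Hoxa2-/-. In wildtype PA1 its medians were 30.3 and 18.9 CPM. How much of the Hand2 level in PA2 came from heart tissue was not tested.

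In wildtype PA2 Hand2 was 7.52, 4.54, 9.10 and 4.55 CPM at E9.0, 7.75, 5.54, 9.60 and 9.85 CPM at E9.5, 15.1, 6.96, 7.86, 10.2 and 7.83 CPM at E10.0 and 10.7, 9.96 and 11.2 CPM at E10.5. By E10.5 it had risen from E9.0 by a limma difference of 1.51 (SE 0.30, adjusted p = 4.4e-05) in wildtype PA1, 1.96 (SE 0.31, adjusted p = 1.8e-06) in PA1 labelled Hoxa2-/- and 1.07 (SE 0.31, adjusted p = 0.0065) in PA2 labelled Hoxa2-/-. In wildtype PA2 the value was 0.69 (limma adjusted p = 0.077), and that in PA2 labelled Hoxa2-/- was 0.80 (limma adjusted p = 0.059) without E9.0 replicate 3. Within embryos the order of the arches was mixed at E9.0, where 3 of 4 in each label had more Hand2 in PA2. At E10.0 it was lower in PA2 in 5 of 5 wildtype embryos and 5 of 5 labelled Hoxa2-/-. In the latter it was 16.3, 17.9, 14.3, 11.6 and 13.0 CPM in PA1 and 10.48, 8.52, 9.59, 11.1 and 9.70 CPM in PA2, without overlap. The limma difference at E10.0 was -0.74 (SE 0.26, adjusted p = 0.082) in wildtype and -0.51 (adjusted p = 0.31) under the Hoxa2-/- label, and the wildtype difference was called with the embryo block, at -0.74 (limma adjusted p = 0.031). At E10.5 Hand2 was lower in PA2 in 3 of 3 wildtype embryos and higher in 1 of 3 labelled Hoxa2-/-, and the limma differences of -0.29 and -0.34 did not pass. The summed arch mesenchyme list was lower in PA2 at E10.0 as well, at 426 to 508 CPM against 571 to 716 CPM in wildtype PA1, with medians of 543 CPM in PA2 and 634 CPM in PA1 under the Hoxa2-/- label. Its part in the Hand2 difference was not tested.

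Hand2os1, an RNA transcribed from the other strand, shares 461 exon bases with Hand2, or 19.6% of the 2351 exon bases of Hand2. Since the counting is not stated to use strand, reads of the pair in that stretch cannot be told apart. Hand2os1 was 7.58, 5.96, 4.72, 7.80 and 7.46 CPM in wildtype PA1 at E9.0 and 60.3, 55.5 and 52.8 CPM at E10.5. Its limma difference between these stages in PA1 was 2.91 (SE 0.31, adjusted p = 3.3e-11) in wildtype and 2.89 (SE 0.32, adjusted p = 4.3e-10) under the Hoxa2-/- label. It was higher in PA2 than in PA1 at E9.0, by 1.08 (limma adjusted p = 0.0047) in wildtype and 1.06 (limma adjusted p = 0.0066) under the Hoxa2-/- label, in 8 of 8 embryos. At E10.0 it was lower in PA2 in 10 of 10 embryos, with a limma difference of -0.73 (adjusted p = 0.10) in wildtype and -0.94 (adjusted p = 0.029) under the Hoxa2-/- label. Summed over both genes, the mean level was 10.8, 34.9, 60.7 and 69.5 CPM in wildtype PA1 and 22.1, 22.8, 36.4 and 52.4 CPM in wildtype PA2 over the 4 stages.

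The number of the 9 genes called between the arches is given here beside the share of all genes called. In wildtype, limma called 0 of 9 at E9.0, where 18.7% of all genes tested were called, 2 of 9 at E9.5 (26.3% of all genes), 1 of 9 at E10.0 (5.94%) and 0 of 9 at E10.5 (1.52%). All 3 of these calls, Edn1 and Ednra at E9.5 and Edn1 at E10.0, were higher in PA2. At unadjusted p under 0.05 limma had 4 of the 9 at E9.0 and 1 at E10.5, and edgeR called 1 and 0. Under the Hoxa2-/- label limma called 1 of 9 at E9.0, Gnaq, lower in PA2 (24.6% of all genes), 1 at E9.5 (9.58%) and 1 at E10.0 (4.23%), both Edn1, and 0 at E10.5 (1.37%). At E10.5 1 of the 9 had an unadjusted limma p under 0.05 and edgeR called 0. With the embryo as a block, limma called 22.8%, 32.3%, 9.48% and 2.28% of all genes between the wildtype arches over the 4 stages and 32%, 15.9%, 8.2% and 2.57% under the Hoxa2-/- label, with 3, 2, 2, 0 and 2, 3, 1, 0 of the 9 genes among them. On the recovered reads edgeR called 19.7%, 26%, 5.81% and 1.49% of all genes in wildtype and 22.2%, 9.72%, 4.81% and 1.17% under the Hoxa2-/- label. For the average of the 4 stages limma called 1 of 9 higher in wildtype (26.1% of all genes, and 32.7% with the block) and 2 of 9 higher under the Hoxa2-/- label (30.1%, and 37% with the block). Groups of the 2 arches did not overlap for 2, 2, 1 and 2 of the 9 in wildtype over the stages, against 17.1%, 17.2%, 6.19% and 17.9% of all genes. With the Hoxa2-/- label they did not overlap for 1, 0, 3 and 3 of the 9, against 17.2%, 6.86%, 6.55% and 21.9%.

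**Figure D4:**
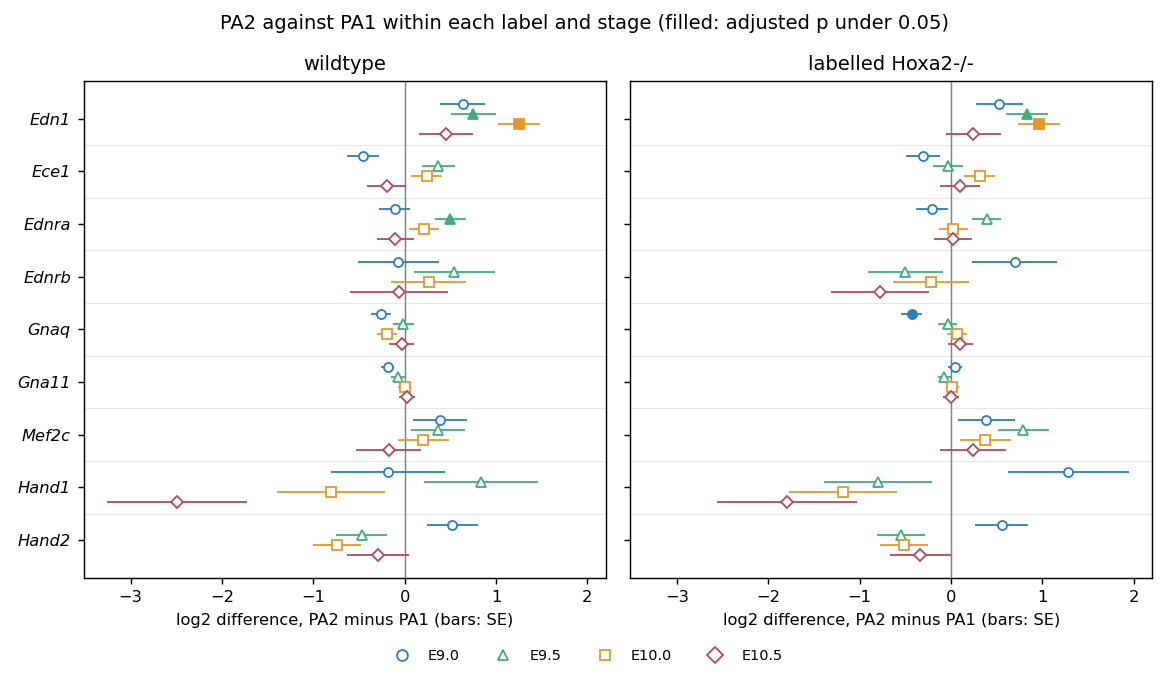
Log2 difference between PA2 and PA1 (horizontal axis, bars: SE) for the 9 genes at 4 stages, in wildtype (left) and under the Hoxa2-/- label (right), with filled symbols for an adjusted p under 0.05. Edn1 lies above 0 at all stages in both panels, and Hand1 reaches -2.49 at E10.5 in wildtype.

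From E9.0 to E10.5 limma called 3 of 9 higher and 4 lower in wildtype PA1 (42.5% of all genes called), 1 higher and 2 lower in wildtype PA2 (36.9%), 2 higher and 3 lower in PA1 labelled Hoxa2-/- (31.2%) and 2 higher and 4 lower in PA2 labelled Hoxa2-/- (30.9%). From E9.0 to E9.5 it called 1 higher and 2 lower in wildtype PA1 (6.73%), 1 higher and 1 lower in wildtype PA2 (6.68%), 1 higher and 2 lower in PA1 labelled Hoxa2-/- (2.85%) and 1 higher and 1 lower in PA2 labelled Hoxa2-/- (16.9%). Edn1 and Mef2c fell from E9.0 to E10.5 in all 4 series, and both kept their calls there when any library was left out. Hand2 rose in 3 of the 4, and Hand1 in the 2 series of PA1. Levels at E10.5 and E9.0 did not overlap for 6 of the 9 in each series, against 48.8%, 39%, 41.1% and 28.7% of all genes in wildtype PA1, wildtype PA2, and PA1 and PA2 labelled Hoxa2-/-. The PA1 and PA2 series of a label come largely from the same embryos, so they are not independent.

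Between the labels, 2 of the 9 genes were called in 1 comparison and none in the other 7. In PA1 at E9.5, where 23.6% of all genes were called, Ece1 was higher under the Hoxa2-/- label, at 181, 160, 288, 95.2 and 144 CPM against 91.7, 167, 91.3, 120 and 129 CPM, with a limma log2 difference of 0.48 (SE 0.17, adjusted p = 0.032). The groups overlapped, and the call was lost without any of 4 libraries: limma gave 0.39 (adjusted p = 0.13) without wildtype replicate 1 or 3, 0.44 (adjusted p = 0.071) without replicate 1 of the Hoxa2-/- label and 0.27 (adjusted p = 0.24) without its replicate 3. Gna11 was lower under the Hoxa2-/- label, at 104, 101, 83.7, 94.4 and 100 CPM against 119, 104, 118, 120 and 106 CPM, with a limma difference of -0.23 (SE 0.07, adjusted p = 0.013). The Gna11 value was -0.18 (limma adjusted p = 0.070) without replicate 3 of the Hoxa2-/- label. Label and the division of the libraries cannot be told apart at this stage. At E10.0, where both labels lie on the same side of the division, limma called 0 of 9 in PA1 (0% of all genes) and 0 of 9 in PA2 (0.0814%), and 0 of the 9 had an unadjusted p under 0.05 in either arch, and edgeR called 0 in both. At that stage the Edn1 difference between labels was 0.05 in PA1 and -0.23 in PA2, both with an SE of 0.23, Hand2 differed by -0.14 in PA1 and 0.08 in PA2 with an SE of 0.26, and Ednra by -0.03 and -0.22 with an SE of 0.16.

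In the remaining label comparisons limma called 0 of 9 in PA1 at E9.0 (2.08% of all genes) and E10.5 (3.05%). In PA2 it called 0 of 9 at E9.0 (14% of all genes), 0 at E9.5 (4.48%) and 0 at E10.5 (10.3%). In PA1, 0 and 2 of the 9 had an unadjusted p under 0.05, and in PA2 2, 1 and 2 did. edgeR called 0 in each, except 1 in PA2 at E9.5, which was Gna11 at -0.24 (adjusted p = 0.034). At E10.5 Edn1 in PA1 did not overlap between the labels, at 1.87 to 4.57 CPM under the Hoxa2-/- label and 1.05 to 1.77 CPM in wildtype, and Mef2c did not overlap in the other direction, at 14.6 to 15.1 CPM against 17.6 to 20.4 CPM. Among all genes 28.7% did not overlap in that comparison. In PA2 at E10.5, where 33.7% of all genes did not overlap, Ece1 was higher without overlap under the Hoxa2-/- label, at 83.9 to 106 CPM against 64.2 to 80.8 CPM. Ednrb was lower there without overlap, at 2.67 to 2.88 CPM against 4.55 to 7.43 CPM. Gna11 did not overlap between the labels at E9.5 in PA1 (9.18% of all genes) or in PA2 (9.45%), where it was 84.0 to 98.0 CPM under the Hoxa2-/- label against 101 to 110.3 CPM. In the other 4 comparisons the labels overlapped for all 9 genes. The limma difference of Edn1 in PA1 at E10.5 was 0.87 (adjusted p = 0.098), and it was 1.12 (adjusted p = 0.044) with a pseudocount of 0.25. The difference between the label effects of PA2 and PA1 was called for 0 of 9 genes at every stage, where 0%, 0.0109%, 0.0163% and 0.038% of all genes were called. At unadjusted limma p under 0.05 it held 1, 0, 0 and 0 of the 9 over the stages, and edgeR called 0 at each. With the embryo block, 0.0163%, 0.0163%, 0.0217% and 0.0543% of all genes were called.

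**Figure D5:**
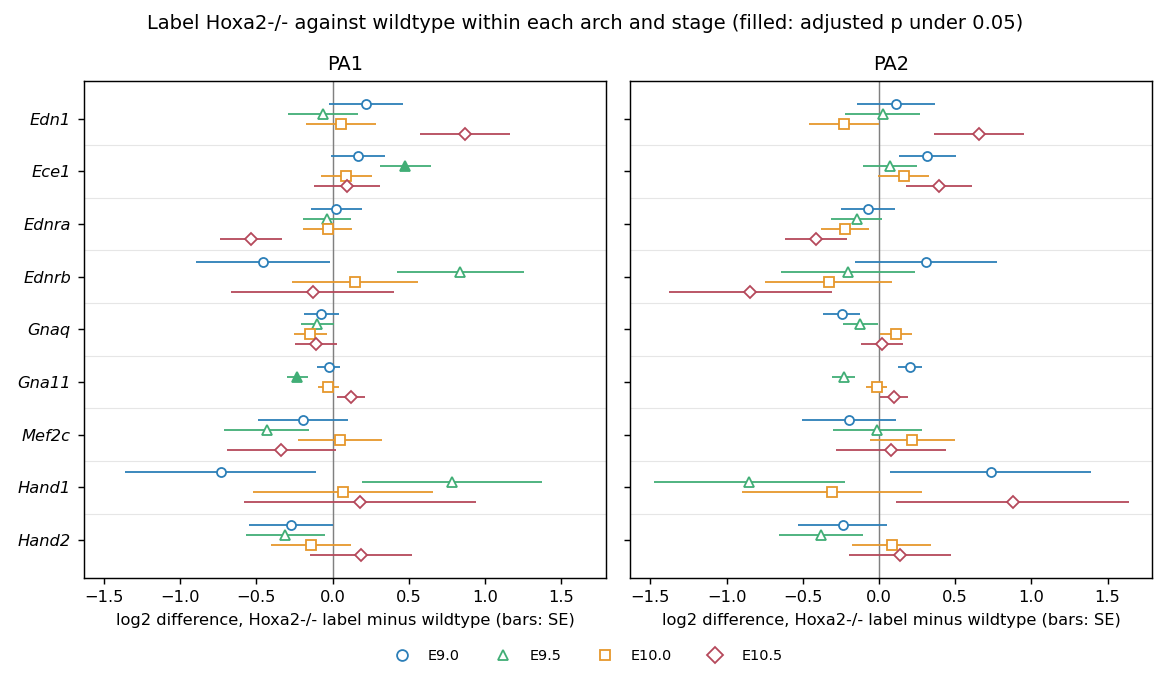
Log2 difference between libraries labelled Hoxa2-/- and wildtype libraries (horizontal axis, bars: SE) for the 9 genes at 4 stages in PA1 (left) and PA2 (right), with filled symbols for an adjusted p under 0.05. Only Ece1 and Gna11 in PA1 at E9.5 are filled.

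Of the other genes of the endothelin system, none was called lower in PA2 at any stage. Of 17 listed, 16 were in the table and 13 were tested. In wildtype 4, 9, 4 and 0 of the 13 were higher in PA2 over the 4 stages and 0 lower at each, with median log2 differences of 0.18, 0.62, 0.52 and 0.04 against medians of all genes between -0.02 and 0.01. Of all genes, 10.2%, 12.7%, 4.51% and 0.868% were called higher in wildtype PA2 over these stages. In embryos labelled Hoxa2-/-, 5, 7, 2 and 1 were higher and 0 lower, against 12.1%, 6.12%, 3.13% and 0.982% of all genes called higher. The summed cardiomyocyte list had medians of 1171, 155, 46.8 and 8.54 CPM in wildtype PA2 over the 4 stages. In wildtype PA1 they were 30.3, 18.9, 8.91 and 8.59 CPM. The part of cell content in these arch counts was not tested. Gna14, the gene of another Gq family alpha subunit, was higher in wildtype PA2 by 1.5, 1.37, 0.95 and 0.33, of which the first 3 passed. Plcb1, a phospholipase C that Gq activates, differed by -0.16, 1.08, 1.01 and 0.33, of which the E9.5 and E10.0 values passed. Rgs4, a regulator that ends G protein signalling, was higher in PA2 by 2.53 at E9.0 in wildtype and stood at -1.95 at E10.5. From E9.0 to E10.5, 6 of 13 were lower and 3 higher in wildtype PA1, where 21.5% of all genes were lower and 21% higher. In wildtype PA2 8 were lower and 1 higher (19.4% and 17.5% of all genes). Under the Hoxa2-/- label, 7 were lower and 2 higher in PA1 (16.5% and 14.8%), and 10 were lower and 1 higher in PA2 (15.1% and 15.8%). Furin, a protease that cuts the endothelin precursor, fell in all 4 series by 0.49 to 0.80 on the log2 scale. Edn3, the ligand that acts on Ednrb, had a higher mean at E10.5 in all 4, by 0.69 and 1.01 in wildtype PA1 and PA2 and 0.39 and 0.92 under the Hoxa2-/- label. In PA1 labelled Hoxa2-/- its levels overlapped, at 19.5 to 30.1 CPM at E9.0 and 27.4 to 32.7 CPM at E10.5. In the other series they did not overlap.

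Of the ventral arch genes, many of which depend on endothelin signalling, none was called higher in PA2. Of 10 listed and tested (among them Dlx3, Dlx4, Dlx5, Dlx6, Gsc, Barx1, Msx1, Msx2 and Nkx3-2), 6, 3, 3 and 3 were lower in wildtype PA2 over the 4 stages and 0 higher, with medians of -0.77, -0.48, -0.39 and -0.22. The shares of all genes called lower there were 8.53%, 13.7%, 1.43% and 0.651%. Among embryos labelled Hoxa2-/-, 5, 6, 3 and 2 were lower and 0 higher, against 12.5%, 3.47%, 1.1% and 0.385% of all genes called lower. At E9.0 Barx1, a homeobox gene of proximal ventral mesenchyme, was lower in PA2 by a log2 difference of -2.87 in wildtype and -2.03 under the Hoxa2-/- label, and Dlx5 by -1.32 and -1.22. The Dlx5 difference was -0.02 and 0.13 at E10.5. From E9.0 to E10.5, 6 of 10 rose in PA1 of each label and none fell, and in PA2 of each label 9 rose and Msx2 fell, by 1.86 in wildtype and 1.26 under the Hoxa2-/- label. All genes called higher made up 21% and 17.5% in wildtype PA1 and PA2, and 14.8% and 15.8% under the Hoxa2-/- label. The median log2 difference was 1.70 and 1.78 in wildtype PA1 and PA2, over stages in which Edn1 fell in the same libraries. Gsc, a homeobox gene of the lower jaw, rose by 3.32 and 3.76 in wildtype PA1 and PA2, while Dlx5 rose by 1.44 in PA2 and had a difference of 0.14 in PA1 that did not pass. In PA2 at E9.0 the summed arch mesenchyme list was also lower, at 333 to 385 CPM against 499 to 572 CPM in wildtype PA1. It was lower without overlap at E9.5 too, at 431 to 448 CPM against 479 to 566 CPM, and at E10.0, as given for Hand2. At E10.5 it overlapped, at 551 to 653 CPM in PA2 and 602 to 695 CPM in PA1. From E9.0 to E10.5 the medians of this list went from 531 to 626 CPM in wildtype PA1 and from 370 to 619 CPM in wildtype PA2. Under the Hoxa2-/- label they went from 475 to 665 CPM in PA1 and from 416 to 620 CPM in PA2. The part of mesenchyme content in these arch differences and in the rise over the stages was not tested.

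The genes listed as dorsal, some of which endothelin signalling is known to hold back in the ventral arch, included members higher and lower in PA2. Of 8 listed and tested (among them Dlx1, Dlx2, Pou3f3, Nr2f1, Nr2f2, Jag1 and Hey1), 2, 2, 4 and 2 were higher in wildtype PA2 over the stages and 1, 0, 0 and 0 lower. These counts stand beside 10.2%, 12.7%, 4.51% and 0.868% of all genes higher and 8.53%, 13.7%, 1.43% and 0.651% lower. Hey1, a Notch target, was called higher in PA2 at all 4 stages in both labels, with a mean log2 difference of 1.39 in wildtype and 1.84 under the Hoxa2-/- label. Jag1, the Notch ligand of the dorsal arch, was higher in wildtype PA2 by 0.76, 1.42 and 1.21 at the first 3 stages and differed by 0.30 at E10.5. Among 10 tested partners of MEF2 and HAND factors, at most 1 was higher and at most 1 lower between the wildtype arches at any stage, beside the same shares of all genes. Twist1, a partner of Hand2 in arch mesenchyme, was lower in PA2 at E9.0 by -0.80 in wildtype and -0.66 under the Hoxa2-/- label. Twist2 rose from E9.0 to E10.5 by 3.04 and 3.67 in wildtype PA1 and PA2 and by 3.19 and 2.93 under the Hoxa2-/- label, in parallel with Hand2 in PA1.

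Some markers of other cell types separated the arches at all stages and in both labels, as background to the differences above. Tcf21, of core mesoderm, was higher in PA2 by a mean log2 difference of 1.63 in wildtype and 1.57 under the Hoxa2-/- label. Isl1 was higher by 1.40 and 1.30, and Ngfr, of the neural crest and glial list, by 1.46 and 1.37. The sum of that list overlapped between the wildtype arches at E9.0, with medians of 91.3 CPM in PA1 and 89.98 CPM in PA2. At E10.0 its wildtype medians were 17.1 CPM in PA1 and 36.2 CPM in PA2. Krt14, an epithelial keratin, was lower in PA2 by -2.34 and -2.55. The summed epithelium list to which it belongs had higher medians in wildtype PA2 at E9.0, with 1099 CPM against 967 CPM in PA1, and at E9.5, with 989 CPM against 880 CPM. At E10.5 its medians were 494 CPM in PA2 and 622 CPM in PA1. Tbx1 was higher in PA2 at all 4 stages under the Hoxa2-/- label, by a mean of 1.32.

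The genes most like each of the 9 were sought by Pearson's r over the 16 group means of log2(CPM + 1), among 11350 candidates. These values are descriptions over groups that share embryos and libraries. Most like Edn1 were Pard6b, Pawr and Nectin2, each with r = 0.97, and those most like Mef2c included Ccl6 (0.98) and Ina (0.98). For Hand2 they were Vapb (0.97), Hand2os1 (0.94) and Ebf3 (0.93), and for Hand1 Enpp1 (0.88), Dkk1 (0.84) and Mid2 (0.84). The receptors had Pcyt1b (0.90), Serpini1 (0.88) and Creb5 (0.87) beside Ednra, and B3gntl1 (0.89), Vkorc1 (0.87) and Zbtb8b (0.86) beside Ednrb. The genes most like Ece1 included Ncdn (0.95) and Tgoln1 (0.95), Gnaq was most like Sympk (0.94), Nin (0.89) and Nucks1 (0.89), and Gna11 like Sf3b4 (0.94), Vegfb (0.94) and Cox10 (0.93). Among the 9 genes themselves, r was 0.82 between Edn1 and Ece1, 0.81 between Edn1 and Mef2c, -0.87 between Mef2c and Hand2 and -0.72 between Edn1 and Hand2.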

How the data were processed

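Polyadenylated RNA of single arches was amplified with SMART-seq v4 and made into Nextera XT libraries, per the labels' protocols. The submitters' processing notes name bcl2fastq 2.18, TopHat2 2.1.1, R 3.3.2 and the genome build mm10. The counter, annotation and strand setting are not given in the sources used here. The authors deposited 1 table of a normalized signal per gene, here called CPM: its column totals ran from 926298 to 1051959, and 100% of values were whole multiples of 1 read within 0.01 reads. The plan had assumed plain CPM, and its tests were kept. No molecular identifiers are described, so floors cover counting error only.

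Symbols (21921 of 21948 identifiers), coordinates and exon lengths came from GENCODE M21 (GRCm38). The main test was limma 3.58.1 (run in R 4.3.3), applied to log2(CPM + 1), a scale that understates changes of low genes, with 1 mean per group over 68 libraries, a trended prior variance, two-sided p-values and Benjamini-Hochberg adjustment over the 18428 genes with at least 1 CPM in at least 3 libraries. The threshold was an adjusted p of 0.05. Every log2 difference is on that scale. The count test was edgeR 4.0.16 (quasi-likelihood) on the recovered reads, which called 3637 genes between the wildtype arches at E9.0. Scripts were tested on simulated data. Among 116 replicate pairs, chi-square per degree of freedom ran from 5.91 to 96.9, so none was a copy.

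The pairing of the arches by embryo was inferred from shared replicate numbers, as the sample titles name no embryo. Deviations of the same embryo had a median correlation of 0.35 over 33 pairs, 30 of them over 0.1, against -0.13 over 108 pairs of different embryos. Deviations were taken from the means of small groups, which pushes the second value to the negative side, so it is not an independent baseline. The correlation cannot tell a shared embryo from other sharing between libraries of the same number.

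Alternatives were another pseudocount, filter, scaling or set of groups, edgeR, the embryo as a block, each library left out, and the cardiomyocyte or epithelium list as a covariate. A yolk sac covariate, leaving out 8 libraries with a yolk sac list over 30 CPM or an erythroid list over 10000 CPM, the 4-stage average, the change of the arch difference and the sum of Hand2 with Hand2os1 were chosen after seeing the data. The members and lists were chosen with earlier results of these data known. Named besides the 9 genes are the 3 most similar to each, list genes called in the same direction at all 4 stages, and Hoxa2. Some genes that this rule or the lists name are not reported here. Other list genes, Ski and Hand2os1 were picked after their values were seen.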

Additional observations from a re-analysis of the deposited data

Results flagged for a closer look

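In 8 of 108 groups of 4 or 5 libraries, a single library lay far from the others for 1 of the 9 genes, where chance alone gives about 1 in 20. These libraries were wildtype PA2 E9.5 replicate 5 for Edn1 (25.5 CPM), PA2 E10.0 replicate 1 labelled Hoxa2-/- (22.2 CPM) and wildtype PA1 E10.0 replicate 3 (42.1 CPM) for Ednra, and PA1 E9.5 replicate 3 labelled Hoxa2-/- for Ednrb (62.6 CPM). The others were PA2 E9.0 replicate 3 labelled Hoxa2-/- for Ece1 (74.8 CPM), wildtype PA2 E9.0 replicate 4 for Hand1 (21.5 CPM), and wildtype PA1 E9.0 replicate 3 (2.56 CPM) and PA2 E9.5 replicate 1 labelled Hoxa2-/- (1.59 CPM) for Hand2. Of these 8 libraries, PA2 E9.0 replicate 3 labelled Hoxa2-/- and wildtype PA1 E9.0 replicate 3 were among those with high yolk sac transcripts.

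Hand1 had an arch difference that changed between E9.0 and E10.5 under the Hoxa2-/- label, by -3.08 on the log2 scale (limma adjusted p = 0.048). That call was lost with edgeR, with the cardiomyocyte covariate and when most single libraries were left out, as given for Hand1. Ednrb was higher in PA2 in all embryos labelled Hoxa2-/- at E9.0 and lower in all at E10.5, with medians that differed by 1.24, and the tested difference was -1.47 (limma adjusted p = 0.20). Ece1 was lower in PA2 in all wildtype embryos at E9.0 and higher in all at E10.0, with medians that differed by -0.75, and then lower in all at E10.5, with medians that differed by 0.50. Neither difference of Ece1 was tested. Mef2c at E10.5 was lower in PA2 in all wildtype embryos and higher in all embryos labelled Hoxa2-/-, with medians that differed by -0.52, and the tested interaction was 0.42 (limma adjusted p = 1).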

How the results depend on the processing

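Counts of the 9 genes called moved with several settings. Shares of all genes called are given above only for the main fit, the embryo block and edgeR. For the other settings, and for fits without single libraries, the counts show only how calls moved and have no share beside them. PA2 against PA1 in wildtype: at E9.0 the count went from 0 to 3 with the cardiomyocyte covariate, 2 with only the compared groups, 2 with the yolk sac covariate, and 1 each with edgeR, the epithelium covariate and a pseudocount of 5. At E9.5 it went from 2 to 0 with the cardiomyocyte covariate. At E10.0 it went from 1 to 3 with that covariate and to 2 with only the compared groups or a pseudocount of 5, and at E10.5 from 0 to 1 with that covariate or when other groups were left out. Under the Hoxa2-/- label: at E9.0 from 1 to 2 with the cardiomyocyte covariate and 0 with only the compared groups; at E9.5 from 1 to 2 with edgeR or the epithelium or yolk sac covariate and 0 with only the compared groups; at E10.0 from 1 to 2 with the cardiomyocyte covariate and 3 with only the compared groups; at E10.5 from 0 to 2 when other groups were left out. The wildtype 4-stage average went from 1 to 3 with the cardiomyocyte covariate and 2 with only the compared groups. The change of the arch difference under the Hoxa2-/- label went from 1 to 2 with a filter of 5 CPM and to 0 with edgeR, no filter, a pseudocount of 0.25 or the epithelium or yolk sac covariate.

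Between labels, the count in PA1 at E9.5 went from 2 to 1 with the epithelium covariate and 0 with only the compared groups. It went from 0 to 1 in PA1 at E10.5 with a pseudocount of 0.25, in PA2 at E9.0 with the epithelium or yolk sac covariate, in PA2 at E9.5 with edgeR, the epithelium covariate or a filter of 5 CPM, and when other groups were left out in PA2 at E10.5. Between stages, wildtype PA2 went from 2 to 5 with the cardiomyocyte covariate and 1 with only the compared groups for E9.5 against E9.0, and from 3 to 5 with either for E10.5. PA1 labelled Hoxa2-/- went from 3 to 0 at E9.5 with only the compared groups. PA2 labelled Hoxa2-/- went from 2 to 1 at E9.5 without the 8 libraries of high yolk sac or blood content and to 0 with only the compared groups, and from 6 to 3 at E10.5 with the epithelium covariate or only the compared groups. Size-factor scaling by median of ratios moved no count. The cause of these shifts was not tested.

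The direction turned for Ednrb in PA2 labelled Hoxa2-/- from E9.0 to E10.5 with the epithelium covariate (0.42) and for the 4-stage arch average of Mef2c under that label with the cardiomyocyte covariate (-0.046).

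With each embryo as a replicate block, the arch counts went from 0 to 3 in wildtype E9.0 (Edn1, Ece1 and Gna11, the last at -0.19, limma adjusted p = 0.022), 1 to 2 in wildtype E10.0, and 1 to 2, and 1 to 3, at E9.0 and E9.5 under the Hoxa2-/- label. The change of the arch difference under that label went from 1 to 2, Gnaq being added at 0.53 (limma adjusted p = 0.024). Besides Mef2c under that label at E9.5, 0.79 (limma adjusted p = 0.0064), and those given with the results, the block changed no other call.

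Leaving out each library in turn gave counts of 0 to 2, 0 to 3 and 1 to 2 for the wildtype arches at E9.0, E9.5 and E10.0, 1 to 2 and 0 to 3 under the Hoxa2-/- label at E9.0 and E9.5, and 0 to 2 for its change of the arch difference. Between labels it gave 0 to 2 and 0 to 1 in PA1 at E9.5 and E10.5 and 0 to 1 in PA2 at E9.0. For E9.5 against E9.0 it gave 1 to 3 in wildtype PA1, 0 to 3 in wildtype PA2 and 1 to 3 in each arch labelled Hoxa2-/-. Where a group was left with 2 libraries, they are assumed to vary like the other groups.

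Without division by exon length, the order of median levels was Ece1 (1), Gna11 (2), Gnaq (3), Ednra (4), Mef2c (5), Hand1 (6), Edn1 (7), Hand2 (8) and Ednrb (9). Edn1 at E10.5 and Ednrb lay within a few CPM of the pseudocount, so their log2 differences are the least precise in scale.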
